A study of Mus musculus with 4 samples.

Results

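Genes of the extracellular matrix were followed in the seminal vesicle, the male accessory gland whose folded epithelium rests on a basement membrane and is wrapped in fibrous stroma and smooth muscle. The members are the probe sets whose platform annotation gives a single gene symbol of a collagen, a laminin chain, a nidogen, perlecan, fibronectin, an elastic fibre or matricellular protein, a small leucine-rich proteoglycan, or an enzyme that modifies or cross-links collagen. Members were matched by symbol alone, though the set was chosen with earlier results of these data known. It gave 104 of 12422 probe sets, which read 72 of 8251 genes: 21 genes of the basement membrane (30 probe sets), 46 genes of the interstitial matrix (66 probe sets) and 5 hydroxylases that act on collagen chains inside the cell (8 probe sets). All samples carried wild-type Nkx3.1 alleles (Nkx3.1 +/+), on the strain background C57Bl/6J, were 15 months old and had no treatment in the labels. Each of the 4 mice gave 1 Affymetrix Mu74AV2 array of its seminal vesicle, so the study holds a single group and no contrast of genotype, age or tissue. Numbers 1 to 4 only name the mice, and litter, cage and hybridisation batch are not given in the labels.

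A basement membrane is a thin sheet under epithelium and around muscle cells and vessels. It is built from a laminin network and a collagen IV network that nidogens and the heparan sulfate proteoglycan perlecan link to each other. The interstitial matrix beyond it is made of fibrillar collagens, of collagen VI filaments, of elastic fibres and of adhesive glycoproteins such as fibronectin. Small leucine-rich proteoglycans bind the collagen fibrils and regulate their width. Fibroblasts and smooth muscle cells are known to make most of the interstitial proteins, while epithelium, endothelium and muscle share in making the basement membrane. In whole tissue, fewer cells of a type and less RNA per cell cannot be told apart.

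Signals were summarised by RMA, which corrects background and brings the arrays toward a common distribution, and are on the log2 scale. They carry no detection call, so each array was given a background limit, set at the 90th percentile of signals from genes typical of other organs (140 probe sets, 116 genes). The limits were 6.18, 6.07, 6.08 and 6.21 in mice 1 to 4. A gene was above the background range when any of its probe sets exceeded the limit on all 4 arrays. By this rule 23 of the 72 matrix genes were above the range, or 31.9%, against 28.5% of all genes, and 28 of the 104 probe sets were, against 23.3% of all probe sets. These shares lie near each other, and the limit sets the count: 39 matrix genes passed with the 75th percentile, where 49.7% of all genes did, and 15 with the 95th, where 20.8% of all did. A value under the limit does not show that a gene was silent, and levels of different probe sets are not compared, because each has its own probes. The gland's own markers gave signal, since 10 of 13 measured genes of the luminal epithelium list and 11 of 14 of the smooth muscle list were above the range, and so were 3 of 17 of the fibroblast list, of which 4 are matrix members themselves. Among the fibroblast genes Gsn and Thy1 passed, whereas Pdgfra, Pdgfrb and Vim did not.

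**Figure D1:**
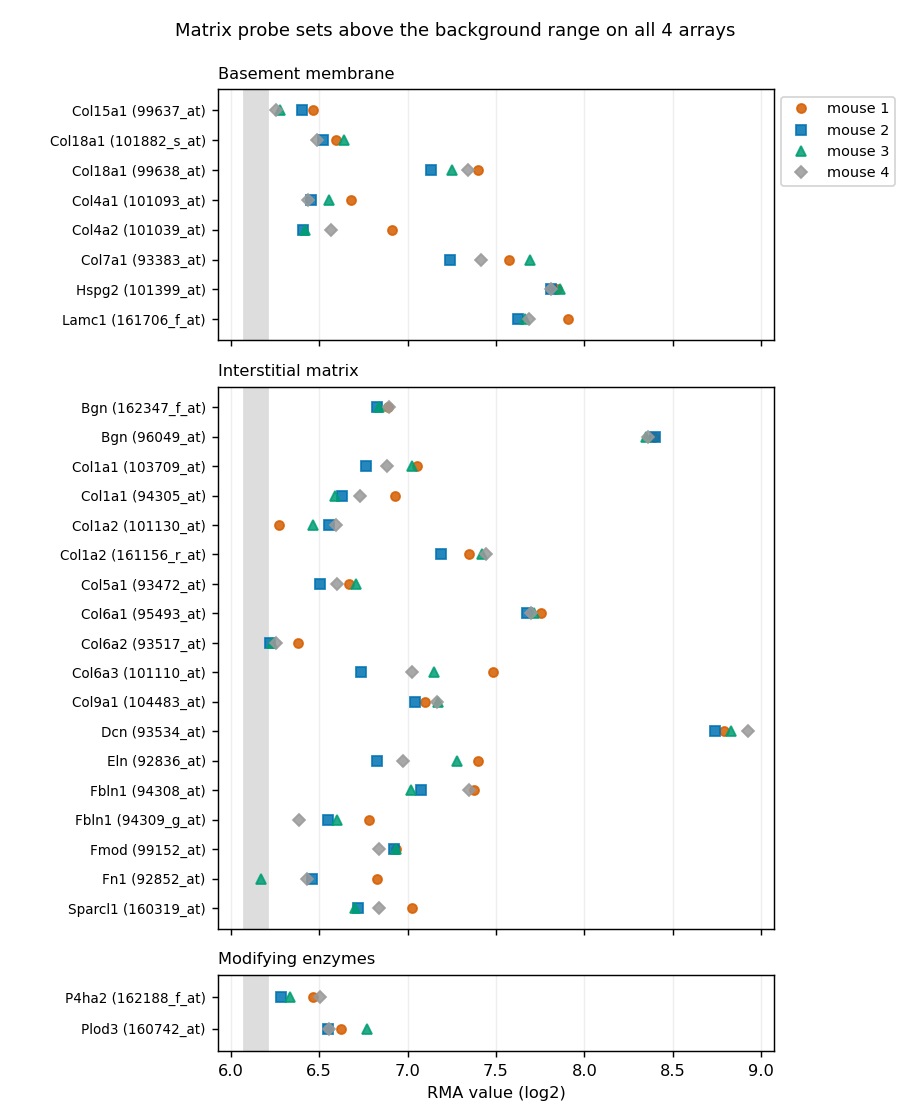
RMA values (log2, horizontal axis) of the 28 matrix probe sets above the background range on all 4 arrays, 1 row per probe set and 1 symbol per mouse. The grey band spans the background limits of the 4 arrays, from 6.07 to 6.21. In most rows the 4 mice lie close together, and the circle of mouse 1 is often the rightmost.

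In the basement membrane 7 of 21 genes were above the range (33.3%). Collagen IV, the network-forming collagen, was represented by its most widespread chains. Col4a1 had 6.68, 6.45, 6.55 and 6.43 in mice 1 to 4 (6.53 ± 0.11, SD, n = 4). Col4a2, whose product joins that of Col4a1 in a heterotrimer, had 6.91, 6.41, 6.42 and 6.56 (6.58 ± 0.23). Both were highest in mouse 1, and the mice lay within 0.25 log2 units for Col4a1 and 0.50 for Col4a2. The chains known from specialised membranes such as that of the kidney glomerulus stayed under the limit on every array, with 3.46 ± 0.12 for Col4a3, 4.43 ± 0.05 for Col4a4 and 4.77 ± 0.04 for Col4a5 (SD, n = 4 each). In the RefSeq annotation (GRCm38.p6) Col4a1 and Col4a2 are neighbours that overlap at their starts, and so are Col4a3 and Col4a4. In each of these pairs the genes lay on the same side of the limit.

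Laminins are cross-shaped trimers of an alpha, a beta and a gamma chain. Of 9 measured laminin genes 1 was above the range on all arrays, the gamma chain gene Lamc1, with 7.91 in mouse 1 and 7.62, 7.66 and 7.69 in the other mice (7.72 ± 0.13, SD, n = 4). That reading rests on a probe set whose name ends in f, and the gene's other probe set had 2.90 ± 0.12. In Affymetrix names the endings f, r, s and i mark probe sets for which rules of probe choice or specificity were relaxed, so this probe set may read further transcripts. The brighter probe set of Lama5, an alpha chain typical of mature epithelium, passed on 3 arrays, with 6.23, 6.06, 6.24 and 6.34 and mouse 2 just under its limit. Lamb2, a beta chain, also passed on 3 arrays, with 6.35, 6.11, 6.17 and 6.20, and there mouse 4 was just under. No alpha or beta chain therefore passed on all 4 arrays. The muscle-associated alpha chain gene Lama2 had 5.44 ± 0.09, the epithelial Lama3 had 4.47 ± 0.06, and Lamb1 had 4.43 ± 0.13 by its brighter probe set. The remaining laminin genes, Lama1, Lama4 and Lamb3, had means from 2.88 to 5.83 over their probe sets and were under the limit on every array.

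Hspg2, which encodes perlecan, was among the steadiest members, with 7.85, 7.81, 7.86 and 7.81 in mice 1 to 4 (7.83 ± 0.03, SD, n = 4). The nidogen genes, whose products bridge laminin and collagen IV, read at 2.37 ± 0.05 for Nid1 and 2.38 ± 0.08 for Nid2, far under the limit in each mouse. Each nidogen is read by a single probe set here. Collagens of the zone next to the basement membrane mostly passed. Col18a1, the source of the fragment endostatin, had 7.40, 7.13, 7.25 and 7.34 by its brightest probe set. Of its 5 probe sets 2 were above the range and 3 were under the limit on every array. Col15a1, its close relative, had 6.47, 6.40, 6.28 and 6.26 (6.35 ± 0.10), just above the limit in mouse 4. Col7a1, the collagen of anchoring fibrils, had 7.57, 7.24, 7.69 and 7.42 (7.48 ± 0.20), lowest in mouse 2. Col17a1, a transmembrane collagen of hemidesmosomes, had 5.39 ± 0.10 and did not pass on any array. The basal epithelium list, to which it belongs, had 1 of 8 genes above the range.

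In the interstitial matrix 14 of 46 genes were above the range (30.4%). Type I collagen, the main fibrillar collagen of connective tissue, passed with every probe set of both of its genes. Col1a1 had 7.05, 6.76, 7.03 and 6.88 by its brighter probe set and 6.93, 6.63, 6.59 and 6.73 by the other. Both sets of Col1a1 were highest in mouse 1. Col1a2 had 7.35, 7.19, 7.42 and 7.45 by its brighter set, of the r ending, and 6.27, 6.55, 6.46 and 6.60 by the other. It was highest in mouse 4 by both, while the lowest mouse was 2 by the brighter set and 1 by the other. The chains of this collagen thus did not share an order of the mice.

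Other fibrillar collagens were mixed. Col5a1, the chain gene of the minor collagen that nucleates fibrils, had 6.67, 6.50, 6.71 and 6.60 by 1 probe set (6.62 ± 0.09, SD, n = 4), and its second set was under the limit at 5.09 ± 0.18. Col3a1, the collagen of distensible tissues, was under the limit in each mouse by all of its 3 probe sets, with 5.79, 5.79, 5.78 and 5.91 by the brightest. Its genomic neighbour Col5a2 was under the limit too, at 4.15 ± 0.09. The cartilage-type genes Col2a1, Col11a1 and Col11a2 had means of 4.56, 3.43 and 5.87 and did not pass.

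All 3 measured chains of collagen VI, which forms beaded filaments near cells, were above the range. Col6a1 had 7.75, 7.68, 7.72 and 7.70 (7.71 ± 0.03, SD, n = 4). Col6a2, its neighbour in the genome, had 6.38, 6.22, 6.23 and 6.26 (6.27 ± 0.07), just above the limits. Col6a3, the long chain, had 7.48, 6.74, 7.15 and 7.02 (7.10 ± 0.31), and its spread was several times that of the other chains. Each of these probe sets was highest in mouse 1 and lowest in mouse 2. A second, dimmer Col6a1 set, of the f ending, had 4.26, 4.39, 4.22 and 4.04 and did not show that order.

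Fibril-associated collagens were above the range in 1 of 7 genes. That gene was Col9a1, known from cartilage and eye, with 7.10, 7.04, 7.17 and 7.16 (7.12 ± 0.06, SD, n = 4). The genes of its partner chains read lower against the limit, since Col9a2 at 6.11 ± 0.14 passed in mouse 3 alone and Col9a3 at 5.62 ± 0.14 in no mouse. Col12a1 and Col14a1, which coat type I fibrils, had 4.65 ± 0.08 and 3.57 ± 0.18, and Col19a1 and Col22a1 were near 3, at 3.02 and 3.04. Col8a1, Col10a1, Col13a1 and Col26a1 did not pass, with means from 2.69 to 5.49 over their probe sets.

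Small leucine-rich proteoglycans, which bind collagen fibrils and regulate their width, passed in 3 of 4 cases. Dcn, decorin, had 8.79, 8.74, 8.83 and 8.93 (8.82 ± 0.08, SD, n = 4). Bgn, biglycan, had 8.39, 8.40, 8.35 and 8.36 (8.37 ± 0.03) by one probe set and 6.89, 6.83, 6.84 and 6.89 by the other, of the f ending. Fmod, fibromodulin, had 6.94, 6.92, 6.93 and 6.84 (6.91 ± 0.05). These mice differed little for each gene, by at most 0.19 log2 units over these 4 probe sets. A dimmer Fmod set, under the limit, had 4.96, 4.60, 4.66 and 4.96, a wider range of 0.37. Lum, lumican, the neighbour of Dcn in the genome, had 4.71 ± 0.15 and was under the limit on every array.

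Of the elastic fibre genes 2 of 7 were above the range. Eln, the elastin gene, had 7.40, 6.83, 7.28 and 6.97 (7.12 ± 0.27, SD, n = 4), high in mice 1 and 3 and low in mice 2 and 4. Its second probe set was near 3, at 3.06 ± 0.09, and did not separate the mice that way. Fbln1, fibulin, which sits in elastic fibres and basement membranes alike, had 7.37, 7.07, 7.02 and 7.35 and, by another set, 6.78, 6.55, 6.60 and 6.38, while a further 2 of its 4 sets were under the limit. Fbln2 had 5.82 ± 0.07, and the microfibril genes Fbn2, Mfap2, Mfap4 and Mfap5 had means from 3.42 to 4.67. The cross-linking enzymes of collagen and elastin, Lox at 3.47 ± 0.06 and Loxl1 at 3.85 ± 0.15, did not pass on any array.

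Among adhesive and matricellular proteins Fn1 and Sparcl1 passed. Fn1, fibronectin, had 6.83, 6.46, 6.17 and 6.43 (6.47 ± 0.27, SD, n = 4), with mouse 1 above the other mice. Sparcl1, an anti-adhesive relative of SPARC, had 7.02, 6.72, 6.70 and 6.84 (6.82 ± 0.15). Mgp, an inhibitor of calcification made by smooth muscle, had 6.90, 6.61, 5.91 and 6.35 (6.44 ± 0.42) and fell under the limit in mouse 3. Vcan, the large proteoglycan versican, had 6.05, 6.05, 6.09 and 6.05 (6.06 ± 0.02) and lay at the limit. Sparc at 5.67 ± 0.08, Postn at 4.92 ± 0.44, Dpt at 4.92 ± 0.08, Tnc at 3.85 ± 0.09 and Tnxb at 5.64 ± 0.11 were under the limit in every mouse, as were Thbs2 and Thbs3. Thbs1 shares its probe set with another gene and was left out for that reason.

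Intracellular enzymes of collagen synthesis passed in 2 of 5 cases. P4ha2, a subunit of prolyl hydroxylase, which lets the collagen helix become stable, had 6.47, 6.29, 6.34 and 6.50 by a probe set of the f ending, while its other set had 5.83 ± 0.08 (SD, n = 4) and did not pass. Plod3, a lysyl hydroxylase, had 6.62, 6.55, 6.77 and 6.56 by 1 of its 3 sets. P4ha1 at 4.21 ± 0.16, P3h3 at 4.25 ± 0.17 and P3h4 at 5.38 ± 0.13 did not pass. Serpinh1, the collagen chaperone HSP47, is no member by the symbol rule and had 6.69, 6.31, 6.67 and 6.39, above the range.

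Many matrix genes are read by several probe sets. The share with all sets on one side was not computed over all genes, so the counts below only describe the members. Of 25 such genes, all sets lay on one side in 16 (above in 3, not above in 13) and were split in 9. The 3 with every set above were Bgn, Col1a1 and Col1a2. Of these, the dimmer set of Bgn has the f ending and the brighter set of Col1a2 the r ending. Lamc1 and P4ha2 passed by a probe set of relaxed specificity alone. Without the sets ending in f, r, s or i, 21 matrix genes were above the range, 6 of the basement membrane and 14 of the interstitial matrix.

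It was then asked whether any matrix gene varied from mouse to mouse beyond what is usual at its signal. Each probe set's variance over the mice was set against the prior variance that limma fits over all 12422 probe sets, with Benjamini-Hochberg adjustment over all of them. With limma 0 of 104 matrix probe sets passed an adjusted p of 0.05, against 0.282% of all probe sets, and the lowest adjusted p was 0.3. At an unadjusted p under 0.05 stood 5 matrix probe sets, or 4.81%, against 5.44% of all. The median SD of the matrix probe sets was 0.11 log2 units, and so was that of all probe sets. The labels name each sample by its own animal number but not how tissue was sampled, so the spread may be technical in part.

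**Figure D2:**
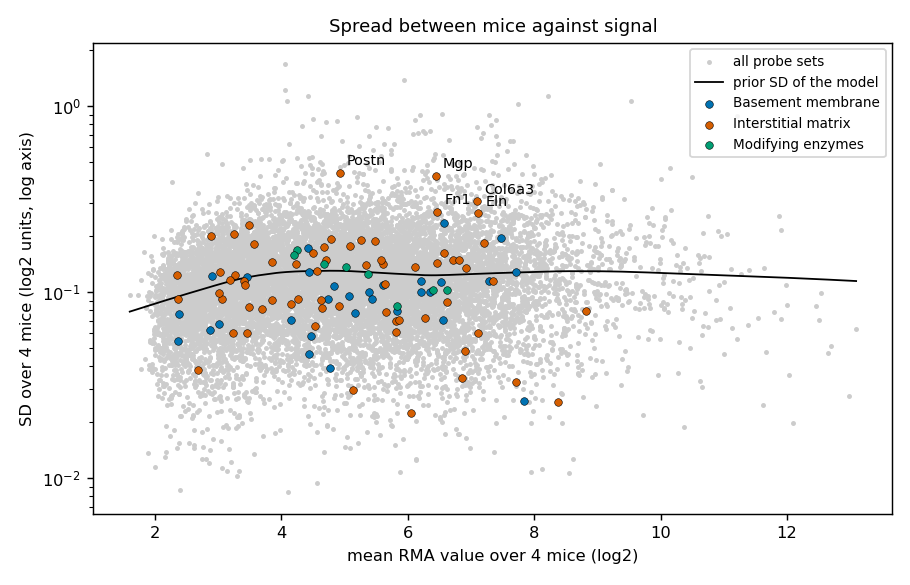
SD over the 4 mice (log2 units, log axis) against mean RMA value (log2) for all 12422 probe sets in grey and the 104 matrix probe sets in colour, with the prior SD of the limma model as a line. Matrix probe sets lie on both sides of the line, and the 5 named ones stand highest above it.

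The 5 probe sets with the widest spread for their signal all belong to the interstitial matrix, and all were highest in mouse 1. They make up 7.58% of its 66 probe sets, near the 5.44% of all probe sets, and the parts were not compared by a test. Mgp was furthest apart between mouse 1 and mouse 3 (SD 0.42, adjusted p = 0.3, limma). Its only probe set has the s ending, so it may read further transcripts. Postn, periostin, a matricellular protein of fibroblasts, had 5.51, 5.01, 4.59 and 4.58 (SD 0.44, adjusted p = 0.311, limma), and all of these values were under the limit. Col6a3 was 1.68-fold higher in mouse 1 than in mouse 2 (SD 0.31, adjusted p = 0.726, limma). Fn1 was 1.58-fold higher in mouse 1 than in mouse 3 (SD 0.27, adjusted p = 0.834, limma). Eln was 1.49-fold higher in mouse 1 than in mouse 2 (SD 0.27, adjusted p = 0.886, limma). None of these passed the correction. The lowest mouse was number 3 for Mgp and Fn1, number 2 for Col6a3 and Eln, and number 4 for Postn, so the genes shared their highest mouse but not their lowest. Without mouse 1 the SD was 0.24 for Postn and 0.16 for Fn1, and without mouse 3 that of Mgp was 0.28. Without mouse 1 the count at an unadjusted p under 0.05 was 3 of 104, against 5.8% of all probe sets. These were Mgp and dimmer probe sets of Col3a1 and Mfap5. In the basement membrane 0 of 30 probe sets stood under 0.05 before adjustment (0 called by limma), against 5.44% and 0.282% of all probe sets. Col4a2 had the widest spread there (SD 0.23, adjusted p = 0.939, limma). Both that value and its rank rest on mouse 1, without which the SD was 0.09 for Col4a2 and 0.23 for Col7a1.

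**Figure D3:**
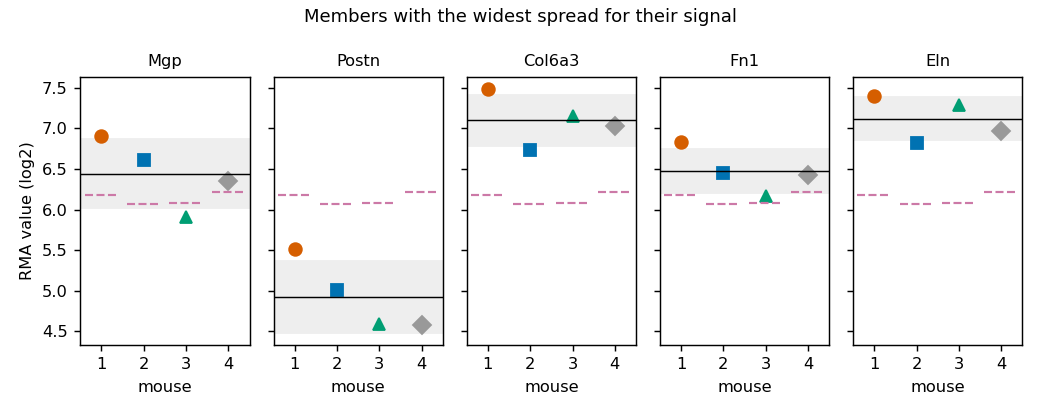
RMA values (log2) of Mgp, Postn, Col6a3, Fn1 and Eln in mice 1 to 4, with the mean as a black line, 1 SD on each side as a grey band and each array's background limit as a dashed line. Mouse 1 is highest in every panel, and Postn is under the limit in every mouse.

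Upstream sequence is shown for members at both ends of this range. RefSeq windows (build GRCm38.p6) matched 46 of the 72 matrix genes, with 54 windows. Col6a3 and Postn are shown as genes of wide spread and Hspg2 and Bgn as genes of small spread (SD 0.03 each over 4 mice). Each is the 250 bases before the annotated start, 5′ to 3′ on the gene's strand, with capitals for matches on either strand to GGGCGG (the core of a GC box), the CCAAT box, the TATAAA box, the AP-1 motif TGANTCA or the CArG box. Matches to different motifs may overlap.
Col6a3, chr1:90843972-90844221, minus strand: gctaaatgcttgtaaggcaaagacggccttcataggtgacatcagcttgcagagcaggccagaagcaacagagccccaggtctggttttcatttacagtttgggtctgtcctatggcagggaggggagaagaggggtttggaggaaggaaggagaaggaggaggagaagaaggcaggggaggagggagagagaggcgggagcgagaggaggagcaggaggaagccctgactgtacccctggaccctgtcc
Postn, chr3:54359017-54359266, plus strand: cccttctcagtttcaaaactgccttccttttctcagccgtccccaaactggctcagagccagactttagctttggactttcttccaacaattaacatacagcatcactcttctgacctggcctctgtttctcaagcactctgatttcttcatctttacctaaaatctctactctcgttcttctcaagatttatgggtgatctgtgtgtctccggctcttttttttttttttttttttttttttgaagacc
Hspg2, chr4:137468553-137468802, plus strand: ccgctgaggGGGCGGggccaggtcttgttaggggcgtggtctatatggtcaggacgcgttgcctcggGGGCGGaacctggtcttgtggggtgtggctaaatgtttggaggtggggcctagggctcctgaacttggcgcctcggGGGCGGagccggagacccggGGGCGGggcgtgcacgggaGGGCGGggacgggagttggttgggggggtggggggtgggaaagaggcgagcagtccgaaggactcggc
Bgn, chrX:73483351-73483600, plus strand: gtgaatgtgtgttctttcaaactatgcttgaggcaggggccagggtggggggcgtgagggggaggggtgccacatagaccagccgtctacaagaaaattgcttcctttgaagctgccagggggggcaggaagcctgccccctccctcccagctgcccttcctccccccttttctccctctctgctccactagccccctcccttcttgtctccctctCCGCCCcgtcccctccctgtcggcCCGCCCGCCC

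The windows of Hspg2 and Bgn held 5 and 3 matches to GGGCGG, whereas those shown for Col6a3 and Postn held 0 matches to any of the motifs. Postn has a further window, not shown, with a TATAAA match. Other members did not keep this contrast. Col6a1 and Fmod, of small spread by their brightest probe sets (SD 0.03 and 0.05), held 0 matches to GGGCGG, and Col4a2 (SD 0.23) held 2. Mgp, Fn1 and Eln, also of wide spread, had no window. Over all matrix windows GGGCGG was found in 48.1% against 32.7% of all windows of this length, and CCAAT in 29.6% against 33.8%. TATAAA was found in 16.7% against 12.4%, the AP-1 motif in 3.7% against 6.75%, and the CArG box, which serum response factor binds in muscle genes, in 1.85% against 1.47%. The single matrix gene with a CArG box in its window was Lama2. These matches describe letters and were not tied to the values by any test.

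Matrix genes were also compared for whether they were high or low in the same mice. For each gene the brightest probe set was taken and its deviation from its own mean over the 4 mice computed, where that gene's mean was over 6.14, the mean limit. The 9 basement membrane genes averaged 0.13, -0.11, -0.01 and -0.02 in mice 1 to 4. The 15 interstitial genes averaged 0.14, -0.09, -0.04 and -0.01. Mouse 1 thus had the top average and mouse 2 the bottom one in both parts. With all probe sets of a gene averaged, mouse 3 was the bottom one of the interstitial part, at -0.09 against -0.07 in mouse 2. Without the probe sets ending in f, r, s or i, that of Mgp among them, 14 interstitial genes were left. These averaged 0.11, -0.09, -0.01 and -0.001 in mice 1 to 4. Without mouse 1 the average of mouse 2 shrank to -0.06 in the basement membrane and -0.05 in the interstitial part. For comparison, all 2614 genes over the limit averaged between -0.01 and 0.02. The genes of other organs that exceeded the limit, 15 in number, averaged 0.06, -0.07, -0.03 and 0.04, the same sign in mice 1 and 2 at a smaller size. No test was made of these averages.

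Counted by gene, 16 of the 26 matrix genes over the mean limit were highest in mouse 1, or 61.5%, against 23.2% of all such genes. Mouse 2 was highest for 1 (30.4% of all), mouse 3 for 5 (26.8% of all) and mouse 4 for 4 (19.7% of all). Mouse 2 was lowest for 18 of the 26, or 69.2%, against 30.4%. Mouse 1 was lowest for 0, against 24.1%, mouse 3 for 5, against 23.4%, and mouse 4 for 3, against 22.1%. Col1a2 was counted here by its brighter set, of the r ending, whereas its other set was lowest in mouse 1. The basement membrane had 6 of 9 highest in mouse 1 and the interstitial matrix 10 of 15. Among the members over the limit that were not highest in mouse 1 were Dcn, Bgn, Col1a2, Hspg2, Col7a1 and Col9a1. Over all 72 measured matrix genes, dim ones included, 30 were highest in mouse 1, or 41.7%, against 25.4% of all genes, and 32 were lowest in mouse 2, or 44.4%, against 35.8%. With arrays shifted to the same median, mouse 1 was highest for 15 of the 26, or 57.7%, against 19.1% of all such genes, and mouse 2 lowest for 14, or 53.8%, against 24.5%. Over all 72 matrix genes mouse 2 then no longer led, being lowest for 24 and mouse 3 for 25.

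Smooth muscle markers moved in the same direction and further. The 11 of 14 measured markers over the limit averaged 0.34, -0.18, -0.04 and -0.13, and 11 of 11 were highest in mouse 1. Of the list's 17 probe sets 8 stood at an unadjusted p under 0.05 by limma (0 called), against 5.44% of all probe sets. Cnn1, calponin, had 10.61 in mouse 1 and 9.73, 9.88 and 9.81 in the others, and Smtn, smoothelin, had 7.61 against 6.68, 7.08 and 6.94. The markers Tpm2, Itga8 and Kcnmb1 were under the limit, and none of them was highest in mouse 1. Over all measured markers 11 of 14 were highest in mouse 1, or 78.6%, against 25.4% of all genes. The summed linear level of the list ran from 7185 to 10120 over the 4 mice, highest in mouse 1. The summed level of the matrix genes ran from 4880 to 5431, also highest in mouse 1. Skeletal muscle markers averaged 0.21, -0.17, -0.05 and 0.01 over 2 of 11 genes, Acta1 and Tnnc2. Fibroblast markers that are no matrix members averaged 0.10, 0.05, -0.20 and 0.05 over 3 of 13 genes, with summed levels from 1040 to 1194. Luminal epithelium markers averaged -0.03, 0.11, -0.07 and -0.01 over 11 of 13 genes, endothelial markers -0.04, -0.003, -0.11 and 0.15 over 2 of 12, and macrophage markers -0.04, 0.06, 0.24 and -0.26 over 5 of 11, and these last lists were not highest in mouse 1. Basal epithelium markers averaged 0.02, -0.03, -0.006 and 0.01 over 2 of 8, highest in mouse 1 and lowest in mouse 2 at a small size, and Col17a1 belongs to that list. For the beta-actin control, 3′ signal exceeded 5′ signal by 1.08, 0.82, 1.02 and 0.98 in mice 1 to 4, highest in mouse 1 and lowest in mouse 2 like the matrix genes. For Gapdh the same difference was -0.12, -0.15, -0.15 and -0.13. The part of muscle content or RNA quality in the matrix pattern was not tested.

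**Figure D4:**
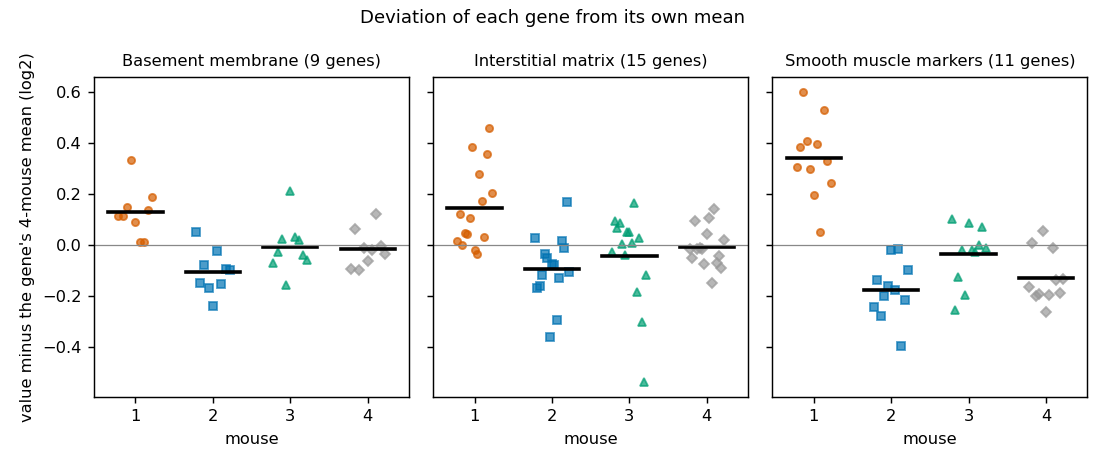
Deviation of each gene from its own 4-mouse mean (log2) for basement membrane genes, interstitial matrix genes and smooth muscle markers whose mean exceeded the mean limit, 1 symbol per gene and mouse, with the average of each list as a black bar. The bar of mouse 1 is the highest in each panel, at 0.13, 0.14 and 0.34.

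Genes that process, bind or regulate the matrix, from lists that hold no member other than Mgp, did not share this pattern throughout. In the list of assembly and turnover 9 of 24 genes were above the range, against 28.5% of all genes. By limma 0 of 32 probe sets were called and 0 stood at an unadjusted p under 0.05, against 0.282% and 5.44% of all probe sets. Among those above were the metalloproteinase inhibitor Timp1 (9.30, 9.48, 9.38 and 9.11), the membrane metalloproteinase Mmp14 (6.90, 6.61, 6.77 and 6.79) and Pcolce, which enhances the trimming of procollagen (6.98 ± 0.01, SD, n = 4). The secreted metalloproteinases Mmp2, Mmp3 and Mmp9 were under the limit. This list averaged 0.02, -0.05, 0.09 and -0.07 in mice 1 to 4, highest in mouse 3.

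Of 25 matrix receptor genes 8 were above the range, against 28.5% of all genes. Among them were Itgb1, the shared beta chain of many integrins (9.31, 9.68, 9.19 and 9.37), and Dag1, the dystroglycan gene that binds laminin (7.41, 7.48, 7.24 and 7.40). Itga5, the partner of Itgb1 in the fibronectin receptor, had 5.46 in mouse 1 and 4.80, 4.64 and 4.73 in the others, under the limit throughout, and it held the 1 of 43 receptor probe sets at an unadjusted p under 0.05 (0 called by limma). The receptor list averaged -0.003, 0.07, -0.03 and -0.04. Of 20 regulators 6 were above the range, against the same 28.5% of all genes. They included Tgfb3 (7.37, 7.60, 7.35 and 7.53) and Ltbp4, a latent TGF-beta binding protein of elastic fibres (8.55, 8.40, 8.37 and 8.45). Ccn2, a target of TGF-beta, had 4.30, 4.96, 4.12 and 3.84, under the limit in every mouse and highest in mouse 2. The regulator list averaged 0.06, -0.02, -0.10 and 0.07 over 8 genes. One of these is Mgp, with deviations of 0.46, 0.17, -0.54 and -0.09, which also enters the interstitial average. The list average is therefore not independent of the matrix pattern. With Mgp, Ccn2 made up the 2 of 23 regulator probe sets at an unadjusted p under 0.05 (0 called by limma). Over all probe sets 5.44% stood under 0.05 before adjustment and 0.282% were called by limma.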

How the data were processed

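Seminal vesicle RNA of 4 wild-type mice was measured on 1 array each. The table the authors deposited holds log2 probe set values from RMA, a tool listed in the submitters' processing notes. No version of it is named there. The log2 scale was read from the values. Normalization reduces differences in overall brightness between arrays, but array medians still ran from 4.95 in mouse 2 to 4.98 in mouse 1. RMA also shrinks differences of dim probe sets. The 66 control probe sets were left out, which left 12422. Of these, 10833 name a single gene in the platform annotation, 396 several and 1193 none. All 72 member genes matched RefSeq (GRCm38.p6) by gene ID.

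The members and lists were chosen with earlier results of these data known. With 1 group, variance between mice was tested with limma 3.58.1 in R 4.3.3. The test was an upper-tail F test against a robust prior with a signal trend (8.06 prior and 3 residual degrees of freedom). It was also run on data simulated from that fitted prior, which checks the calculation but not whether the prior suits these data. The number of arrays limits the precision. The rule for named genes took members above the range, those at an unadjusted p under 0.05 and a fixed list of 39 genes, of which 4 have no single-gene probe set. Alternatives covered scaling, prior fit, dim probe sets, background limits, probe set choice and each mouse left out. Leaving probe sets out by name ending, and leaving mice out of the averages, were chosen after seeing the data.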

Additional observations from a re-analysis of the deposited data

Results flagged for a closer look

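Of 61 values checked for a mouse apart from the others, 2 were set apart, both in mouse 4, and chance sets apart about 5% of groups of 4. The brightest probe set of Col3a1 had 5.91 in mouse 4 against 5.78 to 5.79 in the other mice, under the background limit throughout. Fmod had 6.84 in mouse 4 against 6.92 to 6.94. The SDs of these probe sets over the 4 mice were 0.06 and 0.05. Dimmer sets of the same genes varied more, with SDs of 0.20 and 0.09 for Col3a1 and 0.19 for Fmod.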

How the results depend on the processing

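Limma called 0 matrix probe sets under each alternative run, with the lowest adjusted p between 0.243 and 0.608. Of all probe sets fitted it called 0% to 0.354% in these runs, so few calls among the members were to be had. None of the 46 named probe sets was called under any alternative, over 481 values that each pair a named probe set with a setting. The count at an unadjusted p under 0.05 was 2 when only probe sets above the mean limit were fitted, which left 31 members. Of all probe sets in that fit 5.27% stood there. With a mouse left out the count ran from 3 to 7 of 104, against 5.28% to 6.03% of all probe sets. The background limit moved the counts above the range most. The 75th percentile gave 13 basement membrane, 24 interstitial and 39 matrix genes in all (49.7% of all genes). The array median gave 13, 25 and 41 (55.4% of all genes), and the 95th percentile gave 4 basement membrane genes and 15 in all (20.8% of all genes). With a mouse left out these counts ran from 7 to 8 for the basement membrane, 14 to 15 for the interstitial matrix and 23 to 24 in all. The averages per mouse moved by less than their spread between mice, and mouse 1 stayed highest of both parts in each setting that held it. Mouse 2 did not stay lowest of the interstitial part with all probe sets of a gene averaged (-0.07, against -0.09 in mouse 3). With all measured genes the average in mouse 1 was 0.05 for the basement membrane and 0.07 for the interstitial matrix. No paired analysis was possible because the design has a single group. Signal over background limits what dim members such as Postn can show.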
